A study of Mus musculus with 4 samples.

Results

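The V-ATPase is the proton pump of lysosomes and of the osteoclast's ruffled border. The genes described here are those of its membrane sector (V0) and of its accessory subunits: Atp6v0a1, Atp6v0a2, Tcirg1, Atp6v0b, Atp6v0c, Atp6v0d1, Atp6v0d2, Atp6v0e, Atp6ap1 and Atp6ap2. A gene was included where the platform annotation named a probe set with that symbol alone, and where several did, the one with the highest mean was taken. This gave 9 of the 10 listed genes, out of 19938 genes on the array; Atp6v0c was not matched and was not analysed here. All 9 lay above a floor of 4.25 (log2) on each array. The floor is the 95th percentile of the values of olfactory and vomeronasal receptor genes. On at least 1 array 13561 genes exceeded it.

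RNA came from cultures of RAW 264.7, a mouse macrophage-like cell line that turns into multinucleated osteoclasts in the presence of RANKL, the osteoclast-inducing ligand, and M-CSF, a macrophage growth factor. Cells transfected with a control vector or with a vector expressing the microRNA miR-155 were left unstimulated or were given RANKL and M-CSF for 72 h, at 20 ng/ml. The design text does not say whether that dose holds for each cytokine. Each of the 4 groups has 1 array of the Mouse Gene 1.0 ST type, so a difference between 2 arrays has no replicate check and no p-value, and precision is limited by this number. All groups are of 1 cell line, and the sources used here do not say whether a vector was carried by 1 clone or a pool.

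RefSeq lists a 5p and a 3p mature strand of miR-155, and which of them the vector yielded was not measured on these arrays. The 5p strand is below, shown with its seed (bases 2 to 8) in capitals (GRCm38.p6, chr16:84714143-84714165, plus strand).
mmu-miR-155-5p: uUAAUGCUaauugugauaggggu
The level of Mir155 was under the floor in all groups, between 3.58 and 3.73 (log2). The assay does not read mature microRNAs and cannot serve as a check of the vector.

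The pump has 2 sectors. The cytoplasmic V1 sector hydrolyses ATP, and the V0 sector in the membrane carries protons through a ring of proteolipid subunits past subunit a, whose isoform goes with the membrane in which the pump sits. In osteoclasts the a3 isoform, encoded by Tcirg1, takes the pump to the plasma membrane that faces bone, where the acid dissolves mineral. Loss of Tcirg1 causes osteopetrosis. Subunit d joins the sectors, and its d2 isoform, encoded by Atp6v0d2, is typical of osteoclasts and also needed for the fusion of their precursors.

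In the control-vector cells, 8 of the 9 genes were at least 1.5-fold higher after RANKL and M-CSF, and all 8 were past 2-fold. Of all genes above the floor, 12.3% were past 1.5-fold and 5.73% past 2-fold in this direction, as were, past 1.5-fold, 17.3% of the 3516 genes whose mean was at least that of the dimmest member. The median difference of the 9 genes was 1.45 (log2), or 2.74-fold, against -0.02 for all genes. In the miR-155 cells 4 of the 9 were at least 1.5-fold higher, against 3.43% of all genes, and the median was 0.43, or 1.34-fold, against -0.03. Without Atp6v0d2, which stands far above the rest, the medians were 1.38 and 0.41. In both vectors the ranges were wide, from 0.23 to 6.75 in control cells and from -0.31 to 5.52 in miR-155 cells. In bulk RNA, fewer osteoclasts and less RNA of a gene per osteoclast cannot be told apart.

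The stimulated control array stood apart from the other 3. Across genes, which are not replicates, its Pearson correlation with them was 0.908 to 0.937, while the others correlated at 0.982 to 0.989. With 1 array per group no value without it can be given for the control response. The response of miR-155 cells and the unstimulated comparison of the vectors do not use that array. In place of replicates, the receptor probe sets give a noise reference: 95% of the 1212 differed by less than 0.48 (log2) in the control response, 0.41 in the miR-155 response, 0.37 for the vectors without stimulation and 0.47 with it. These probe sets are dim, and the reference does not stand for the error of replicates.

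**Figure D1:**
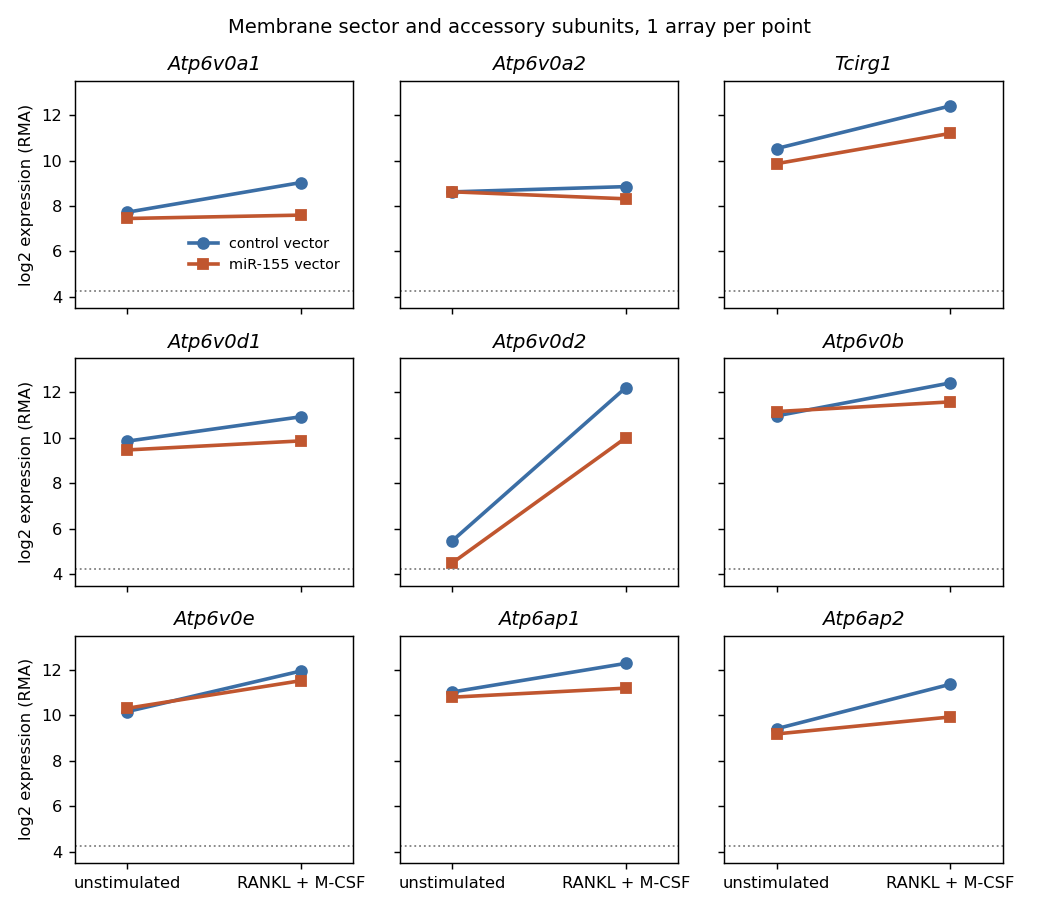
Log2 expression (y axis) of 9 V-ATPase genes without and with RANKL and M-CSF (x axis); each point is 1 array, circles are the control vector, squares the miR-155 vector, and the dotted line is the floor of 4.25. Atp6v0d2 has the steepest lines, from 5.46 to 12.21 and from 4.48 to 10.00, and Atp6v0a2 the flattest.

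Subunit a has 3 isoforms among these genes, and their differences were unequal. Tcirg1, the a3 isoform, read 10.53 in unstimulated and 12.41 in stimulated control cells, and 9.86 and 11.20 in the miR-155 cells (all log2). It was thus 3.67-fold higher with stimulation in control cells and 2.52-fold higher in miR-155 cells, places 265 and 86 among the 13561 genes ordered from the highest difference. Both stimulated arrays were above both unstimulated arrays, and within each state the miR-155 array was the lower one.

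Atp6v0a1 encodes the a1 isoform, best known from neurons, where it acidifies synaptic vesicles. It read 7.72 and 9.03 in control cells without and with stimulation, and 7.45 and 7.60 in miR-155 cells. The stimulated control array alone was high. The gene was 2.47-fold higher with stimulation in control cells, whereas the difference in miR-155 cells, 0.15, was inside the noise reference. Its promoter, 250 bases before to 50 after the start in RefSeq, holds 1 copy of TGANTCA, where N is any base. This is looser than the letters typical of AP-1 factors such as Fos and Jun, which have C or G in the middle. The copy here has T there. Of all 32851 promoters, 7.81% hold TGANTCA on either strand. The stretch below runs from base -140 to base -81 (GRCm38.p6, chr11:101010258-101010317, plus strand), with that match in capitals.
Atp6v0a1 promoter: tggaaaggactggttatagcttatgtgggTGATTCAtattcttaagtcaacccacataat
A match is a description of letters and not a measured site.

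Atp6v0a2 encodes the a2 isoform of endosomes and the Golgi apparatus. It read 8.62 and 8.85 in control cells without and with stimulation, and 8.62 and 8.31 in miR-155 cells. The 4 values span 0.54, the smallest range of the 9 genes. Both stimulation differences, 0.23 and -0.31, were inside the noise reference. This is the only member with more than 1 probe set, and the other one, with a lower mean of 7.44, had the opposite sign in both responses, at -0.23 and 0.17. No direction is therefore given for Atp6v0a2.

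Set side by side, the stimulation difference of Tcirg1 exceeded that of Atp6v0a2 by 1.65 in control cells and by 1.64 in miR-155 cells. Against Atp6v0a1 the excess was 0.57 in control and 1.18 in miR-155 cells, or 2.27-fold. Tcirg1 was the highest of the 3 in both vectors, with either probe set of Atp6v0a2. The distance from Atp6v0a1 to Tcirg1 was larger by 0.61 in miR-155 cells, where Atp6v0a1 lay close to its unstimulated level. That widening was inside the noise reference for the difference of the responses, 0.64. It also uses the stimulated control array, which stood apart. No difference between the vectors is therefore given for this distance. The excesses are differences of log2 differences. Levels of different probe sets were not compared.

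Subunit d has a widely expressed isoform, d1, and the osteoclast isoform d2. Atp6v0d2 read 5.46 and 12.21 in control cells without and with stimulation, and 4.48 and 10.00 in miR-155 cells. It was 108-fold higher with stimulation in control cells and 45.9-fold higher in miR-155 cells, places 2 and 3 among all 13561 genes. Its unstimulated miR-155 level lay only just above the floor. Atp6v0d1 read 9.86 and 10.93 in control cells, and 9.47 and 9.87 in miR-155 cells. It was 2.11-fold higher in control cells, and its difference of 0.40 in miR-155 cells was inside the noise reference. The response of Atp6v0d2 exceeded that of Atp6v0d1 by 5.68 (log2) in control and 5.12 in miR-155 cells, or 51.3-fold and 34.8-fold.

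**Figure D2:**
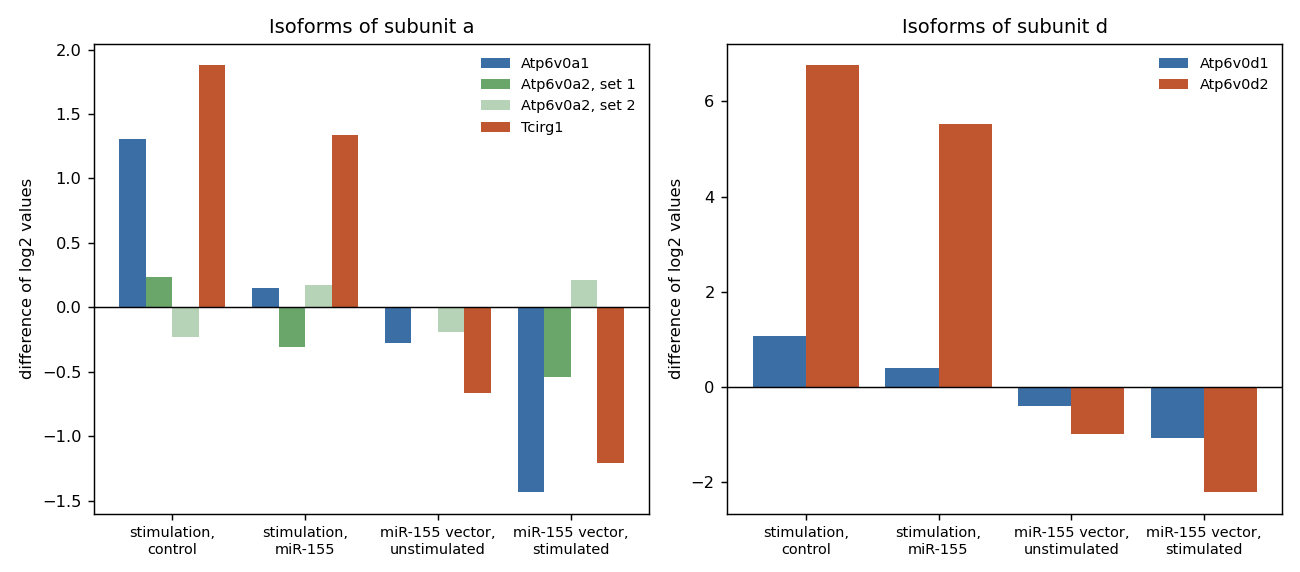
Differences of log2 values (y axis) for the isoforms of subunit a (left) and subunit d (right) in 4 comparisons (x axis); each bar is the difference of 2 arrays, stimulated minus unstimulated or miR-155 minus control vector, with no error since each group has 1 array. Tcirg1 has the tallest bar of subunit a in both responses (1.88 and 1.33), the 2 probe sets of Atp6v0a2 point in opposite directions in both responses, and the bars of Atp6v0d2 are longer than those of Atp6v0d1 in all 4 comparisons.

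The remaining V0 genes have 1 form among the members. A second e isoform, Atp6v0e2, is not a member and is given further below. Atp6v0b encodes c'', a proteolipid of the rotating ring. It read 10.97 and 12.42 in control cells without and with stimulation, and 11.16 and 11.59 in miR-155 cells. It was 2.74-fold higher with stimulation in control cells and 1.34-fold higher in miR-155 cells, the latter difference, 0.43, only just beyond the noise reference of 0.41. Atp6v0e encodes the small hydrophobic subunit e. It read 10.16 and 11.95 in control cells, and 10.31 and 11.53 in miR-155 cells. With Tcirg1 and Atp6v0d2 it was 1 of 3 genes more than 2-fold higher in both vectors, 3.45-fold in control and 2.32-fold in miR-155 cells, against 1.15% of all genes past 2-fold in miR-155 cells.

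The promoters were searched for 5 short words. Of the 9 genes, 7 have an entry in the RefSeq promoter table, with 9 promoters between them (Atp6v0a2 and Atp6v0d2 have none). A gene was counted if any of its promoters held a word, while shares are by promoter. By this count 3 of the 7 hold CACGTG, against 7.15% of all promoters. These are the letters at the core of sites bound by Mitf, Tfeb and Tfe3, regulators of lysosome genes, and also by Myc and Max. In Atp6v0d1 and Atp6v0e it lies inside the longer TCACGTGA, which contains CACGTG and is in 0.974% of all promoters. The stretches below are shown to set the matches, in capitals, beside one another.
Atp6v0b promoter, bases -60 to -1 (GRCm38.p6, chr4:117887330-117887389, minus strand): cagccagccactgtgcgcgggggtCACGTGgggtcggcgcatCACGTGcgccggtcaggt
Atp6v0d1 start region (GRCm38.p6, chr8:105566050-105566079, minus strand): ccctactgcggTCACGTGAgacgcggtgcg
Atp6v0e start region (GRCm38.p6, chr17:26676387-26676416, plus strand): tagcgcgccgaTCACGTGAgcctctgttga
Atp6v0b holds 2 copies, which begin at bases -36 and -18. The match spans the start in Atp6v0d1 and begins at base 3 in Atp6v0e.

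The 3 genes with CACGTG had positive stimulation differences in both vectors, of unequal size. Atp6v0e was past 2-fold in both. Atp6v0b and Atp6v0d1 were more than 2-fold higher in control cells and under 1.5-fold in miR-155 cells. Their miR-155 differences, 0.43 and 0.40, lay close to the noise reference of 0.41. Tcirg1, among the most responsive of the 9, has 3 listed promoters and none holds CACGTG. The most responsive, Atp6v0d2, has no promoter entry. Whether these letters bear on the responses was not tested. Among other pump genes, 1 of 9 V1 genes with an entry (10 promoters) holds CACGTG (Atp6v1a), and 1 of 5 acid secretion partners (9 promoters, Clcn7). TCATGTG, another form bound by Mitf, is in none of the 7 and in 3.77% of all promoters, and TGANTCA is in Atp6v0a1 alone. GGAAA, the core letters of NFAT sites, is in 5 of the 7 and in 61.3% of all promoters. All counts here are by gene and all shares by promoter. All motifs were searched on both strands.

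The accessory subunits bind V0 from the luminal side. Atp6ap1, also called Ac45, guides assembly and sorting of the pump. It read 11.02 and 12.29 in control cells without and with stimulation, and 10.80 and 11.20 in miR-155 cells. Atp6ap2, the prorenin receptor, is needed for the assembly and stability of V0. It read 9.41 and 11.37 in control cells, and 9.18 and 9.93 in miR-155 cells. With stimulation Atp6ap1 was 2.40-fold higher in control cells, and its 0.40 in miR-155 cells was inside the noise reference. Atp6ap2 was 3.89-fold higher in control and 1.68-fold higher in miR-155 cells. Apart from Atp6v0d2, that was the widest control response of the 9, at place 232 of 13561.

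The stimulation difference was lower in miR-155 than in control cells for the 8 genes with a given direction. For Atp6v0a2 it was so by 1 probe set (-0.54) and the reverse by the other (0.40). With the brighter set for Atp6v0a2, the difference of the responses ran from -0.54 to -1.24 (log2), with a median of -0.87 against -0.03 over all genes, and 6 of the 9 were past 1.5-fold. Of all genes, 13.9% were lower by that much. Atp6v0d2 (-1.24), Atp6ap2 (-1.21), Atp6v0a1 (-1.16) and Atp6v0b (-1.03) had the widest gaps, each more than 2-fold, as were 4.64% of all genes in this direction. Tcirg1 (-0.54), Atp6v0a2 (-0.54) and Atp6v0e (-0.57) had the narrowest, all inside the noise reference of this comparison, 0.64. These values use all 4 arrays, including the one that stood apart.

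**Figure D3:**
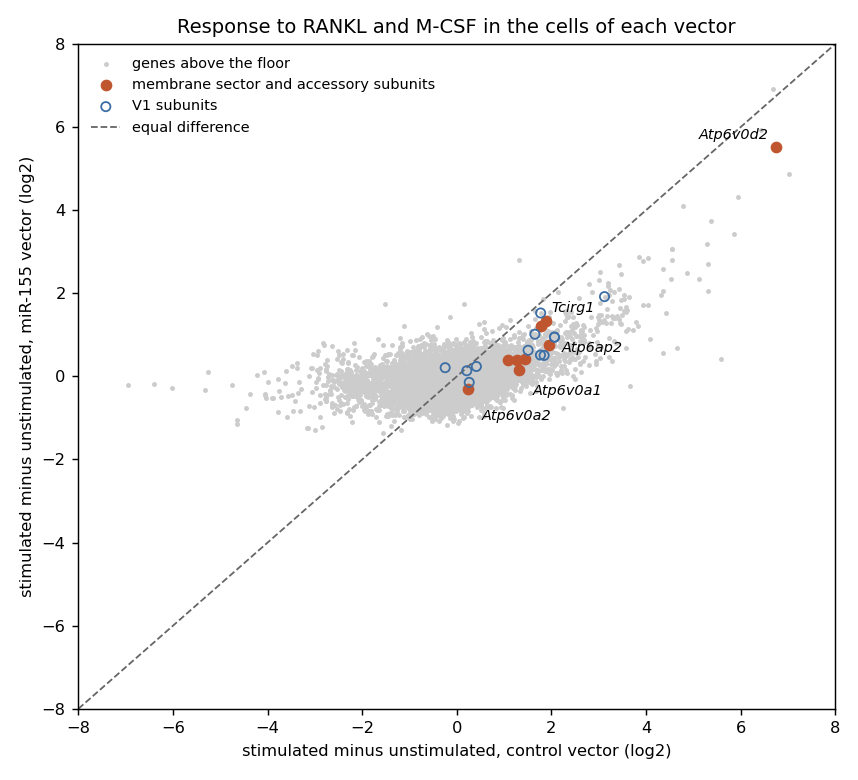
Stimulated minus unstimulated log2 value in miR-155 cells (y axis) against that in control cells (x axis), 1 point per gene, with no shared arrays between the axes; filled points are the V0 and accessory genes, open circles V1 subunits, grey points all genes above the floor. All 9 filled points lie below the dashed line of equal difference, with Atp6v0d2 at 6.75 and 5.52 far from the other 8.

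Between the vectors, without stimulation, 2 of the 9 genes were at least 1.5-fold lower in miR-155 cells, against 3.14% of all genes, and none was higher by that much, against 1.18%. These were Atp6v0d2 (-0.97, or 1.96-fold lower) and Tcirg1 (-0.67, or 1.59-fold lower). Atp6v0d1 (-0.39) was just outside the noise reference of 0.37. The other 6 were inside it, with Atp6v0b (0.19) and Atp6v0e (0.15) slightly above 0, and the median was -0.23. Of the 12 V1 subunits above the floor, 3 were also at least 1.5-fold lower, Atp6v1a (-0.83), Atp6v1d (-0.73) and Atp6v1c1 (-0.66). This comparison does not involve the stimulated arrays.

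With stimulation, 7 of the 9 were at least 1.5-fold lower in miR-155 cells, against 13.6% of all genes, with a median of -1.09 against -0.02. Atp6v0d2 was 4.62-fold lower, Atp6ap2 2.72-fold, Atp6v0a1 2.70-fold and Tcirg1 2.31-fold. Atp6ap1 (2.13-fold), Atp6v0d1 (2.09-fold) and Atp6v0b (1.79-fold) followed. Atp6v0a2 (-0.54) and Atp6v0e (-0.43) did not reach 1.5-fold. The stimulated control array enters both these values and the control response.

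Scaling bears on these counts. With each array centred on Actb, Hprt, Tbp and Ppia (Gapdh was not matched), the median of all genes moved by 0.44 in the control response, by -0.40 between the stimulated arrays and by -0.36 in the difference of the responses. All genes then split into 34.0% higher and 6.55% lower in the control response, in place of 12.3% and 15.1%. Between the stimulated arrays the split became 5.77% higher and 34.4% lower, in place of 12.3% and 13.6%, and for the difference of the responses 7.40% and 33.8%, in place of 14.5% and 13.9%. In the miR-155 response it was 4.93% and 2.15%, in place of 3.43% and 3.73%, and the members' count stayed at 4. The members shifted by the same amounts, so that 9 of 9 were past 1.5-fold in the control response, between the stimulated arrays and in the difference of the responses. Differences between members and between isoforms do not depend on this choice.

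A model with a residual error was fitted once, with stimulation and vector as additive terms over all 4 arrays (limma, Benjamini-Hochberg adjustment over 13561 genes). Its error is the disagreement between the vectors and not the spread of replicate cultures. For stimulation it called none of the 9 genes and no gene at all. At an unadjusted p under 0.05 stood 7 of the 9, all higher, and 1020 genes or 7.52% in all. Atp6v0d2 had a mean difference of 6.14 (SE 0.36), higher in 2 of 2 vectors, with an adjusted p by limma of 0.239. Tcirg1 (1.61, SE 0.23) and Atp6v0e came next, each with an adjusted p by limma of 0.649. For the vector the model called no gene; 3 of the 9, Atp6v0d2, Tcirg1 and Atp6v0d1, had an unadjusted p under 0.05, against 3.86% of all genes, and the lowest adjusted p by limma among the 9 was 0.889. With the arrays centred on the 4 control genes, limma took 1 common error for all genes and called 4 of the 9 for stimulation (Atp6v0d2, Tcirg1, Atp6v0e and Atp6ap2) and Atp6v0d2 for the vector.

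Of the 13 V1 subunits, 12 lay above the floor. With stimulation 8 of these were at least 1.5-fold higher in control cells, against 12.3% of all genes, with a median of 1.71. In miR-155 cells 6 were, against 3.43%, with a median of 0.57. The 4 within 1.5-fold in control cells were dim. Atp6v1b1, Atp6v1c2 and Atp6v1e2 read 3.73 to 4.64 over the arrays, near the floor of 4.25, and Atp6v1g2 read 5.82 to 6.07. Atp6v1d, a subunit of the central rotor, had the highest control response (3.12, or 8.71-fold). It was followed by Atp6v1e1 (2.07) and Atp6v1g1 (2.06), which form the peripheral stalks, and Atp6v1h (1.85), a regulatory subunit. In miR-155 cells these 4 stood at 1.92, 0.95, 0.94 and 0.50. Atp6v1g1 has 2 probe sets, and only the brighter one is given. Whether the V0 and V1 medians differ was not tested.

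The other 3 membrane sector genes differed from one another. Rnasek, a small V0-associated protein, was 2.82-fold higher with stimulation in control cells and at 0.09 in miR-155 cells. Atp6v0e2, a second e isoform, was at 0.25 and -0.59, where Atp6v0e had 1.79 and 1.22, and it was 0.69 higher in miR-155 cells without stimulation. Atp6v0a4, the a4 isoform of kidney, lay between 4.12 and 4.30, under the floor on 3 arrays and just over it on the stimulated miR-155 array. Of the pump assembly and regulation genes, 10 of 11 were matched. In control cells 4 were at least 1.5-fold higher and 1 lower, against 12.3% and 15.1% of all genes. In miR-155 cells 1 was higher, against 3.43%. Dmxl1 (2.03 and 1.29) and Wdr7 (1.29 and 0.15) belong to the rabconnectin complex that joins V1 to V0. Dmxl2, of the same complex, was the 1 lower gene, at -0.75 in control and 0.33 in miR-155 cells, and is named here after its values were seen. Of other regulators, Tbc1d24 (1.67 and 0.57) and Oxr1 (0.78 and 0.43) carry a TLDc domain.

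Partners of the pump in acid secretion were also higher. All 6 were at least 1.5-fold higher in control cells, against 12.3% of all genes, with a median of 2.85. In miR-155 cells 3 were, against 3.43%, with a median of 0.96. Car2, the carbonic anhydrase that supplies protons, was 23.3-fold higher in control and 8.34-fold higher in miR-155 cells. Clcn7, the chloride-proton exchanger of the ruffled border, was higher by 3.43 and 2.10, the bicarbonate exchanger Slc4a2 by 3.28 and 1.45, and the sorting nexin Snx10 by 2.43 and 0.46. Regulators of lysosome genes were mostly flat or lower in control cells. Tfeb was at -1.02 and -0.71, Tfe3 at -0.36 and -0.54, Mitf at -0.10 and 0.40, and Tfec at 0.16 and 0.83. None of the 4 was at least 1.5-fold higher in control cells, against 12.3% of all genes. Without stimulation 2 of the 4 were at least 1.5-fold lower in miR-155 cells, Tfec (-1.39) and Mitf (-0.63), against 3.14% of all genes. Mitf has 2 probe sets, and only the brighter one is given.

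**Figure D4:**
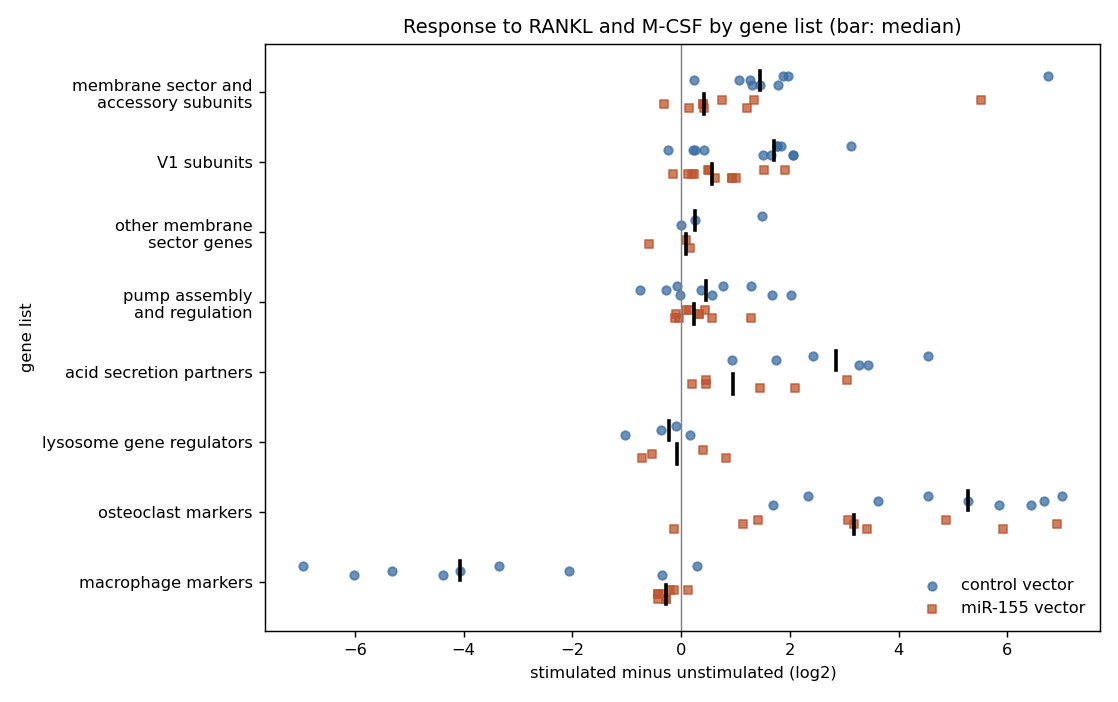
Stimulated minus unstimulated log2 value (x axis) of each gene above the floor, by gene list (y axis), with circles for the control vector, squares for the miR-155 vector and black bars for medians. The V0 and accessory genes have medians of 1.45 and 0.43, the acid secretion partners 2.85 and 0.96, and the macrophage markers -4.06 and -0.28.

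Markers of the cell state moved alongside. With stimulation the 9 osteoclast markers had a median of 5.28 in control cells, all of them past 1.5-fold, against 12.3% of all genes. In miR-155 cells the median was 3.18 and 8 were at least 1.5-fold higher, against 3.43%. Their mean level over the list was 5.91 and 10.73 in control cells without and with stimulation, and 5.59 and 8.90 in miR-155 cells (log2). Of 9 macrophage markers, 7 were lower with stimulation by at least 1.5-fold in control cells, against 15.1% of all genes. In miR-155 cells none of these markers was, against 3.73%. Their mean level was 11.18 and 7.61 in control and 11.00 and 10.73 in miR-155 cells. The part of these shifts in the pump genes' differences was not tested. The 4 matched fibroblast or osteoblast markers stayed between 4.49 and 5.79 with no difference past 1.5-fold in the comparisons made. Of the T or B cell markers 1 of 4 exceeded the floor on each array, and of the mast cell or granulocyte markers at most 1 of 4.

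The genes with profiles most like each member were found by the distance between 4 values centred on each gene's own mean, which is a description over 4 arrays. A gene that spans a wide range tends to have few others within a fixed distance, so the counts below depend in part on the span. The span is 7.73 (log2) for Atp6v0d2 and 1.45 to 2.54 for the others. The counts do not follow it alone. Atp6v0e, with a span of 1.79, had fewer genes near it than Atp6ap2, with 2.19. For Atp6v0d2, Mmp9, a matrix metalloproteinase, was nearest at a distance of 0.49 (log2), the 1 gene within 0.5, followed by Acp5, the tartrate-resistant acid phosphatase, at 1.04, and Scin, an actin-severing protein, at 1.19. Tcirg1 had 50 genes within 0.5, led by Pkp2, Aph1c and Pnpla7. Atp6v0e had 39, led by Clec2d, Ccl9 and Gstt3. The same distance held 186 genes for Atp6ap2 (Cstb, Fgd6 and Nabp1 nearest), 463 for Atp6v0a1 (Amn1, Aqp9 and Daam1) and 487 for Atp6v0b (Gss, H1f2 and Sema4d). Atp6ap1 had 661 (Tor2a, Ap3d1 and Nckap5l) and Atp6v0d1 709 (Prkch, Slc41a2 and Cyp27a1). Atp6v0a2 spans less than 1 and was left out.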

How the data were processed

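RNA from 4 cultures, 100 ng of total RNA each, was made into biotin-labelled cRNA, per the labels' protocols. The authors deposited 1 log2 value for each probe set on each array. The submitters' processing notes name RMA and Partek, with versions and genome build not given in the sources used here. RMA equalises distributions (array medians 4.58 to 4.62), so a change in total RNA is not visible. Of 35557 probe sets, 21789 carry 1 symbol in the platform annotation. Differences of log2 values were counted past 1.5-fold. The additive model used limma 3.58.1 (R 4.3.3) and was run on simulated data with the same error size for all genes. The simulated stimulation shifts were equal in both vectors. The simulation thus left out the disagreement between the vectors, which is the error of the fit here. Python 3.11.15, pandas 2.3.3 and numpy 2.4.6 were used. Likeness is the Euclidean distance of centred values, 3 genes for each member spanning more than 1. Pathway lists name up to 4 genes with the largest absolute control response. Members and lists were chosen with earlier results of these data known. Alternatives covered scaling, probe set choice, the floor, the filter and the threshold. Promoter and microRNA sequences are RefSeq's (GRCm38.p6), set beside the arrays by symbol.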

Additional observations from a re-analysis of the deposited data

Results flagged for a closer look

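Of the V0 and accessory genes and the 5 pathway lists, without the cell type markers, genes are given here where the difference had opposite signs in the 2 vectors or the 2 states and at least 1 of the values exceeded the noise reference. The difference was not tested for any of them, since each group has 1 array. Between miR-155 and control cells, Atp6v0b was at 0.19 (log2) without and -0.84 with stimulation, and Atp6v0a2 at 0.0055 and -0.54, the latter with a second probe set of opposite sign in both responses. Rnasek was at 0.12 and -1.29, Slc4a2 at 0.059 and -1.77, and Snx10 at 0.075 and -1.90. Atp6v0e2 was at 0.69 without and -0.15 with stimulation, and its stimulation difference was 0.25 in control and -0.59 in miR-155 cells. Vma21, a pump assembly factor, was at 0.067 without and -0.62 with stimulation, and its stimulation difference was 0.58 in control and -0.11 in miR-155 cells. Dmxl2 was at -0.33 without and 0.75 with stimulation, and its stimulation difference was -0.75 in control and 0.33 in miR-155 cells. In each of these genes the smaller of the paired values was inside the noise reference. Vma21 and Dmxl2 each have 2 probe sets, and only the brighter one is given.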

How the results depend on the processing

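Each group has 1 array and the labels give no replicate numbers, so no replicate block could be fitted and no replicate left out. The additive model does set the arrays against each other within a vector. At 2-fold, 0 members were lower without stimulation in miR-155 cells, in place of 2 at 1.5-fold. The limma stimulation term called 0 genes as reported, 2 after median centring, 2 after renewed quantile normalization, 2 with an intensity trend, 1 with the mean of probe sets and 1 with the most variable probe set, none of them a member. With arrays centred on control genes it called 495 genes and 4 members for stimulation, and 168 genes and 1 member for the vector. The adjusted p of Atp6v0d2 for stimulation ran from 0.117 to 0.687 in the other settings. Signal limits Atp6v0d2 without stimulation, at 4.48 in miR-155 cells.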
